A study of Saccharomyces cerevisiae with 40 samples.

Results

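The promoters described here are those of the genes with an Oaf1 binding event listed under at least 1 growth condition and no Hap1 binding event listed under any. They were selected on the Oaf1 and Hap1 values themselves: a gene was included when the Oaf1 table gave a log2 signal-to-noise ratio, log2(S/N), in any of its 4 conditions and the Hap1 table gave none. Of 7125 genes named in the tables, 452 (6.34%) had an Oaf1 event, and 226 of these 452 were never listed for Hap1. The other 226 Oaf1 targets were also listed for Hap1 and serve as the set for comparison. A gene called without Hap1 below had no listed Hap1 event, which does not show that Hap1 was absent. The study reports that some earlier Hap1 targets were missed, possibly through other culture conditions or weaker peaks after data treatment. Neighbouring genes transcribed away from each other are often listed with the same event, so that the 226 genes stand for 158 promoters, 90 with 1 gene and 68 with a pair of genes. Such promoters are named with both genes, as in GLT1/UGA3. The genes came from 248 distinct event positions, against 343 for the Oaf1 targets with Hap1.

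The study mapped 5 TFs (Ino2, Ino4, Hap1, Oaf1, and Pip2) by ChIP-exo, a chromatin immunoprecipitation in which an exonuclease trims the DNA up to the bound protein. Each TF carried a TAP tag in its own strain of the CEN.PK 113-5D background, so that every profile comes from 1 tagged strain. Cells were grown in chemostats at 1 dilution rate under nitrogen limitation with 6% glucose (N-lim), ethanol limitation with 0.5% ethanol (Et-lim), glucose and oxygen limitation (Ox,Glu-lim), and aerobic glucose limitation with 0.75% glucose (Glu-lim). For Ox,Glu-lim the sample labels give 1% glucose, whereas the study's methods give the same amount as for Glu-lim, with Tween 80 and ergosterol added in Ox,Glu-lim alone. There were 2 libraries for each TF and condition, 40 in all. The authors pooled these duplicates before deposit, so that a gene has a single value per TF and condition. The tables therefore hold no replicate error, and none of the differences described was tested.

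Oaf1 and Pip2 are zinc cluster activators that bind as a heterodimer to oleate response elements (OREs), pairs of inverted CGG triplets upstream of genes for fatty acid β-oxidation and peroxisome biogenesis. Fatty acids such as oleate activate Oaf1, and PIP2 is itself a target of the pair. Hap1, another zinc cluster protein that recognizes CGG triplets, responds to heme and thereby to oxygen, and is known for its control of respiratory and sterol genes.

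The first question was whether the sequence under the Oaf1 events held such elements. An element was searched on both strands as CGGNNNT, a spacer, and CCG, within 30 bp of an event. With a spacer of 7 to 10 bases it was found at 22 of 248 events (8.87%, exact binomial 95% interval 5.64 to 13.1), against 22 of 343 events of the Oaf1 targets with Hap1 (6.41%, 4.06 to 9.55) and 0.443% of 53481 windows of the same 61 bp upstream of all protein-coding genes. With a spacer of 11 to 14 bases, a range chosen after the data were seen, it was found at 67 of 248 events (27.0%, 21.6 to 33.0), against 73 of 343 (21.3%, 17.1 to 26.0) and 0.473% of the windows. There were 39 of these longer elements, in 36 of the 158 promoters (22.8%), and 25 of the 39 elements (64.1%) had an A 2 bases after the T, as the ORE is also written. Elements at several of the strongest promoters and at genes of β-oxidation and of the peroxisome are printed here because the events described further on fall in or beside them. They were read from the R64 reference (RefSeq), 5′ to 3′ on the strand given, with 3 flanking bases at each end, and the positions are those of the element without its flanks. Capitals mark the CGG, T, and CCG of the search.
GLT1/UGA3, chrIV:156127-156147, minus strand: cttCGGtttTaatgcgtcaatCCGatt
MDH2/TRM13, chrXV:83270-83292, plus strand: cggCGGcttTagaacggctacggCCGaat
INO1/YJL150W, chrX:136346-136367, plus strand: ctaCGGtgaTaaagagctcgttCCGatc
FOX2/tL(CAA)K, chrXI:457305-457325, plus strand: ataCGGcgtTaacaaatttccCCGtcg
FOX2/tL(CAA)K, chrXI:457337-457358, plus strand: tttCGGactTaaaactaggcttCCGgaa
IDP3, chrXIV:614509-614531, minus strand: attCGGcatTaagcatgctaaatCCGagg
FAA2, chrV:184355-184377, minus strand: gctCGGcgtTaaagactgacggtCCGgag
POT1/BNR1, chrIX:41610-41632, plus strand: ctgCGGtgtTaatactattatccCCGttt
POX1/CHC1, chrVII:107846-107868, minus strand: cttCGGagtTtaatcaactaataCCGtaa
CTA1, chrIV:969866-969889, plus strand: tttCGGagtTtatatttgttaaagCCGtcc
CRC1/RAS1, chrXV:514584-514606, plus strand: atgCGGataTtaggagcagtaacCCGatg
TES1, chrX:468389-468411, plus strand: gctCGGtgtTtatgccgtctcttCCGagg
PEX5/PRP28, chrIV:950388-950409, minus strand: attCGGagtTaatcgcgatgatCCGttt
PEX6, chrXIV:22754-22777, minus strand: ataCGGcgaTaatcgtcaacacttCCGgga
PEX11/PSF3, chrXV:48756-48778, minus strand: cgtCGGcatTtatctcggagaacCCGaag
PIP2, chrXV:1023348-1023368, plus strand: ctcCGGagaTtatatttagttCCGaga
ELO1/CDC6, chrX:68910-68932, minus strand: cgtCGGcttTacggattagtaaaCCGaag
RIM101, chrVIII:50827-50849, minus strand: tctCGGacgTaattttagaaactCCGagc
ICL1, chrV:287346-287368, minus strand: ggtCGGgttTtgctactcgtcatCCGatg

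The strongest Oaf1 event without Hap1 was at GLT1/UGA3. GLT1 encodes glutamate synthase and UGA3 the activator of genes for use of γ-aminobutyrate (GABA). Its Oaf1 log2(S/N) was 5.23 under N-lim, 6.49 under Et-lim, 6.53 under Ox,Glu-lim, and 8.01 under Glu-lim, the highest value of any of the 226 genes. The N-lim event at base 156141 lay inside the printed element, whereas the other 3 events lay at bases 156196 to 156199. MDH2/TRM13, the promoter of cytosolic malate dehydrogenase, had 3.87 under N-lim, 6.16 under Et-lim, 5.23 under Ox,Glu-lim, and 6.55 under Glu-lim. Its events under N-lim (83288) and Ox,Glu-lim (83282) fell in the printed element, and those under Et-lim (83340) and Glu-lim (83223) did not, so that the highest event of the promoter was not at 1 position under the 4 conditions.

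INO1, which encodes inositol-3-phosphate synthase and is the classic target of Ino2 and Ino4, shared its events with YJL150W. Its Oaf1 log2(S/N) was 4.17 under N-lim, 5.87 under Et-lim, 5.46 under Ox,Glu-lim, and 5.34 under Glu-lim, all within 29 bp of each other, and the events under Et-lim (136358) and Ox,Glu-lim (136352) lay inside the printed element. LPX1, encoding a peroxisomal lipase, had values of 4.87, 4.68, 4.07, and 5.91 in the same order of conditions, with the 4 events within 4 bp. It was not listed for Pip2. RIM101, which encodes a transcriptional repressor that acts in the response to external pH, had 3.09 under N-lim, 3.97 under Et-lim, 4.82 under Ox,Glu-lim, and 4.46 under Glu-lim. At this promoter the events sat on the triplets at the ends of the element: at base 50827 under N-lim, 50828 under Ox,Glu-lim, 50829 under Glu-lim, and 50848 under Et-lim.

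The promoter with the largest range between conditions was GTT3/PMP2, where PMP2 encodes a proteolipid of the plasma membrane H+-ATPase. Its log2(S/N) was 5.97 under Et-lim and 5.83 under Glu-lim, against 2.01 under N-lim and 2.32 under Ox,Glu-lim, a range of 3.96. The events of the 2 respiratory conditions, Et-lim and Glu-lim, were at the same base, 123419, and those under N-lim and Ox,Glu-lim were at 123243 and 123363. No element with the longer spacer was found there, but the Ox,Glu-lim event lay in one with the shorter spacer. PMP2 was also listed for Ino2 (3.00 under Et-lim and 2.71 under Glu-lim) and for Ino4 (2.27 under Glu-lim).

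**Figure D1:**
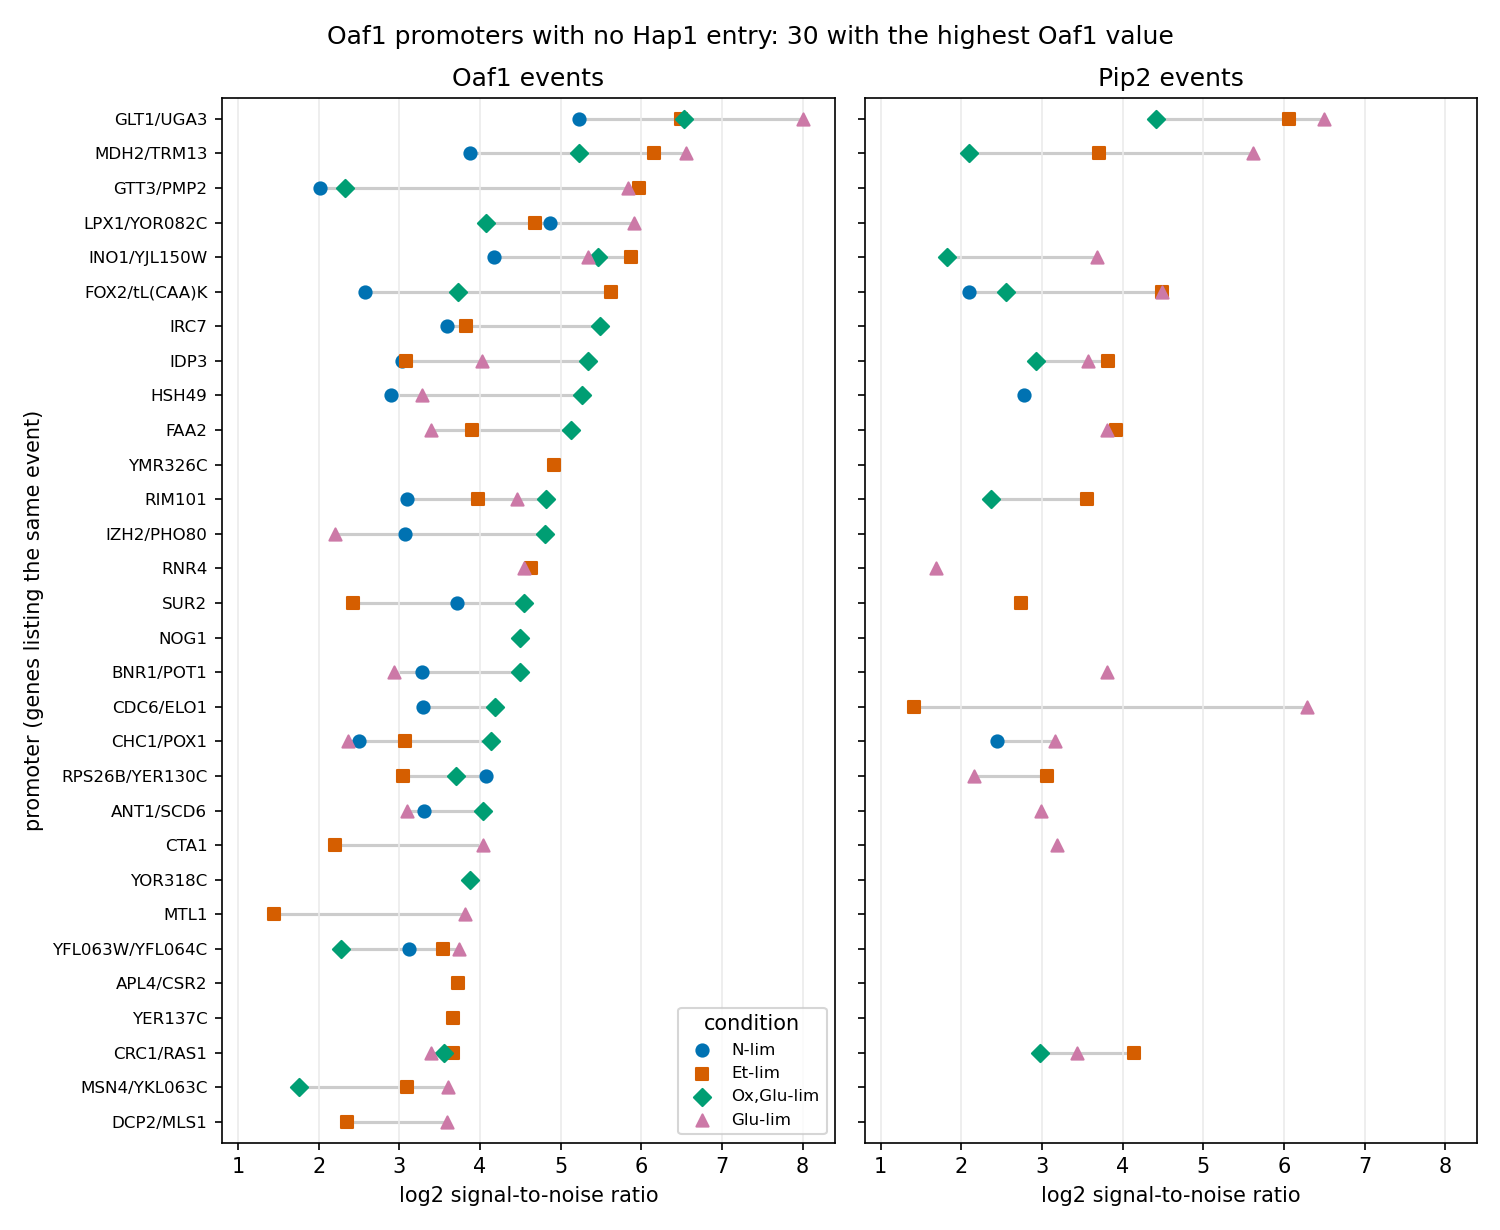
Oaf1 (left) and Pip2 (right) log2 signal-to-noise ratios at the 30 promoters with the highest Oaf1 value among those never listed for Hap1, by growth condition. Each point is 1 pooled value, a grey line joins the lowest and the highest of a promoter, and a missing point means that no event was listed: GLT1/UGA3 leads for both TFs, with 8.01 for Oaf1 and 6.50 for Pip2 under Glu-lim.

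Most of the 226 genes were Oaf1 targets under few conditions. There were 70 genes under N-lim, 121 under Et-lim, 75 under Ox,Glu-lim, and 105 under Glu-lim. Over all 7125 genes, Oaf1 events were listed for 2.30%, 4.01%, 2.33%, and 3.44% in the same order, values on which the selection rests. Of the 226 genes, 146 (64.6%) were listed under 1 condition, 35 under 2, 25 under 3, and 20 (8.85%) under all 4, whereas 84 of the 226 Oaf1 targets with Hap1 (37.2%) were listed under 1 condition and 43 (19.0%) under all 4. Counted as promoters, 11 of the 158 were listed under all 4 conditions. The single-condition genes were mostly from the respiratory cultures: 55 were listed under Et-lim only and 47 under Glu-lim only, against 22 each under N-lim only and Ox,Glu-lim only. The targets with Hap1 showed the same order, with 40 under Et-lim only and 29 under Glu-lim only, against 5 under N-lim only and 10 under Ox,Glu-lim only. A further 20 genes were listed under Et-lim and Glu-lim and nowhere else, which makes 122 genes (54.0%) confined to these 2 conditions, against 99 (43.8%) with Hap1. No gene without Hap1 was listed under N-lim and Glu-lim alone.

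The median of the highest Oaf1 log2(S/N) of each gene was 2.26 (binomial 95% interval of the median 2.13 to 2.58) without Hap1 and 2.87 (2.75 to 3.01) with Hap1. A highest value taken over more conditions can only be equal or higher. Since 64.6% of genes without and 37.2% with Hap1 were listed under 1 condition, these 2 medians are not fully comparable. The order of the medians differed with the condition. Under N-lim they were 2.60 without and 2.64 with Hap1, with intervals that overlapped (2.24 to 3.09 and 2.26 to 2.95). Under Et-lim they were 2.37 (2.13 to 2.85) without and 2.85 (2.68 to 3.02) with Hap1, and under Glu-lim 2.58 (2.36 to 2.93) without and 3.04 (2.86 to 3.50) with Hap1. Under Ox,Glu-lim the median without Hap1 was the higher, 2.96 against 2.54, but the intervals of 2.16 to 3.70 and 2.28 to 3.06 overlapped widely. Values above 4 were reached by 24 of 75 genes without Hap1 under Ox,Glu-lim, and by 8 of 70, 13 of 121, and 14 of 105 under N-lim, Et-lim, and Glu-lim. With Hap1 they were reached by 26 of 91 genes under Ox,Glu-lim, and by 24 of 94, 32 of 165, and 38 of 140 under N-lim, Et-lim, and Glu-lim. These intervals treat genes as independent, which genes of 1 promoter are not.

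**Figure D2:**
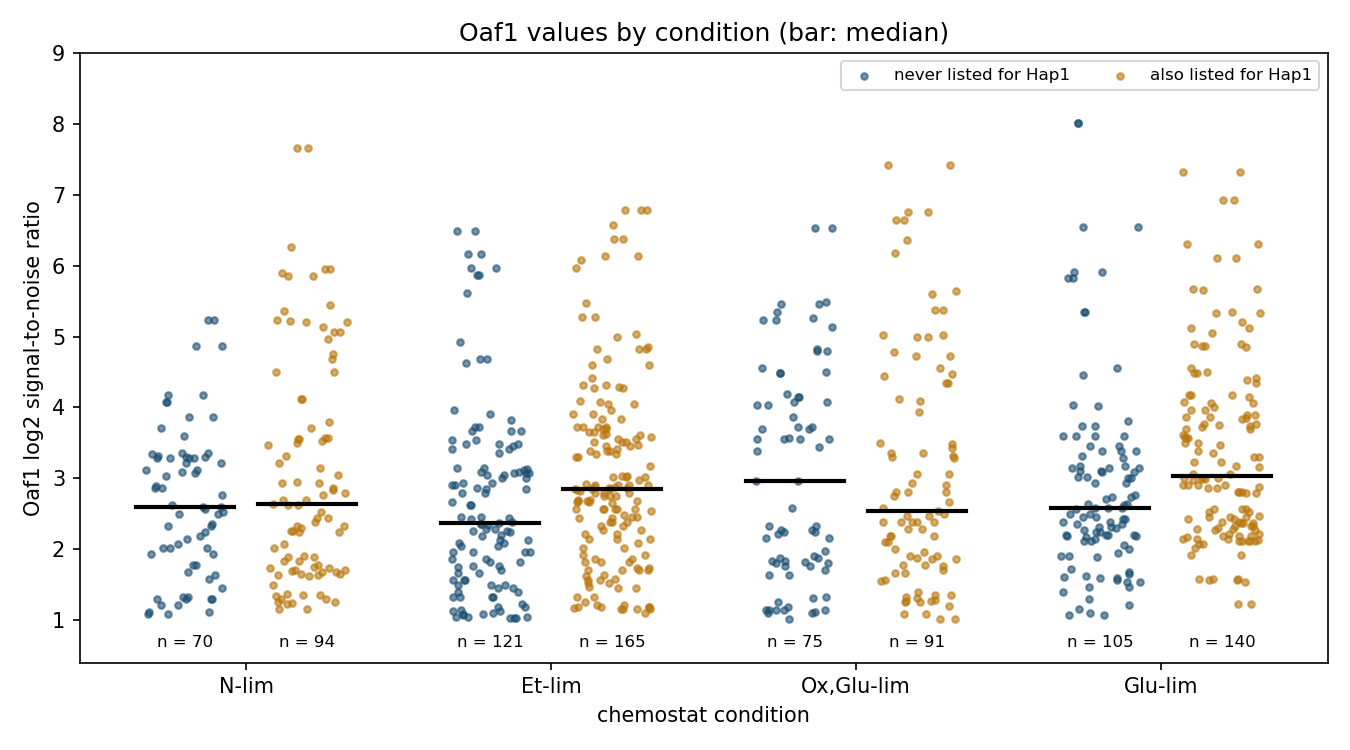
Oaf1 log2 signal-to-noise ratio of each target gene (points) under the 4 conditions, for genes never listed for Hap1 (left of each pair) and genes also listed for Hap1 (right), with the median as a bar. The medians lie between 2.37 and 2.96 without Hap1 and between 2.54 and 3.04 with Hap1, and the clouds overlap under every condition.

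The genes listed under 1 condition alone reached at most 4.92. Under N-lim the highest were GUA1/SKY1, with GMP synthase and a kinase of SR proteins, at 3.35, and CDC6, a replication licensing factor, at 3.29. Under Et-lim the highest was YMR326C at 4.92, followed by APL4/CSR2 at 3.73. Under Ox,Glu-lim they were NOG1, a GTPase of ribosome biogenesis, at 4.50, YOR318C at 3.87, and tL(CAA)K, a leucine tRNA gene, at 3.73. The last of these is the Ox,Glu-lim event of FOX2, 1199 bp from the tRNA gene, and the CDC6 event is that of ELO1, whose promoter was also listed under Ox,Glu-lim at the same base and with the higher value of 4.19. Under Glu-lim DOT6/YER088W-B had 3.15, where DOT6 encodes a repressor of ribosome biogenesis genes.

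At the threshold of the selection, the weakest genes included were NOT5, a subunit of the CCR4-NOT complex, at a highest Oaf1 log2(S/N) of 1.01, and FIT2, RPS23A, and YGR117C at 1.03 each. The genes that were left out by the narrowest margin were HXK2, which encodes hexokinase, with a highest Hap1 value of 1.02, SUR1 with 1.04, and PRY3/YJL077W-A with 1.06. The distance to Hap1 largely follows from the selection, since a Hap1 event within 1200 bp of a gene would usually have been listed for it. Only 1 of the 226 genes, NOG1, had a Hap1 event of any gene within 200 bp of an Oaf1 event, at 98 bp, and its Oaf1 event was 1199 bp upstream of NOG1 itself. Another gene, YPL025C, shared its event with RMI1, which was listed for Hap1. A Hap1 event within 500 bp was found for 6 genes and within 1200 bp for 14, whereas 210 of the 226 Oaf1 targets with Hap1 (92.9%) had a Hap1 event within 200 bp.

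Genes for β-oxidation and peroxisomal metabolism were the gene list with the largest part among these promoters. Of the 18 genes of the list, 10 (55.6%) were Oaf1 targets never listed for Hap1, 1 (MDH3, the peroxisomal malate dehydrogenase) was also listed for Hap1, and 7 (SPS19, ECI1, DCI1, PXA1, PXA2, YAT1, and YAT2) had no Oaf1 event. For comparison, 3.17% of all 7125 genes belong to the set without Hap1. All 10 genes were listed under 2 or more conditions, with highest values between 3.35 and 5.62, and their events lay 102 to 352 bp upstream of the start, with a median of 229 bp. The longer element was found at 8 of the 10, and 9 of the 10 were also listed for Pip2.

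POX1 encodes acyl-CoA oxidase, which carries out the first step of the pathway. Its Oaf1 log2(S/N) was 2.50 under N-lim, 3.07 under Et-lim, 4.14 under Ox,Glu-lim, and 2.36 under Glu-lim, with events spread over 212 bp. FOX2, the multifunctional enzyme of the next steps, had 2.57 under N-lim, 5.62 under Et-lim, and 3.73 under Ox,Glu-lim, and no Oaf1 event under Glu-lim. Its Et-lim event at 457315 was at the centre of the first printed element and its Ox,Glu-lim event at 457358 at the last base of the second. POT1, the thiolase of the last step, had 3.28 under N-lim, 4.49 under Ox,Glu-lim, and 2.93 under Glu-lim, and none under Et-lim. Among these 3 enzymes the highest value was under Ox,Glu-lim at POX1 and POT1 and under Et-lim at FOX2.

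Among the genes that supply the pathway, FAA2, an acyl-CoA synthetase of the peroxisome, had 3.90 under Et-lim, 5.13 under Ox,Glu-lim, and 3.39 under Glu-lim, all within 8 bp in the printed element. IDP3, the peroxisomal isocitrate dehydrogenase that provides NADPH for unsaturated fatty acids, had 3.03 under N-lim, 3.08 under Et-lim, 5.34 under Ox,Glu-lim, and 4.02 under Glu-lim. TES1, a peroxisomal thioesterase, was the most even of them, with 3.34 under N-lim, 3.35 under Et-lim, and 3.32 under Glu-lim. The adenine nucleotide carrier ANT1 had 3.30 under N-lim, 4.04 under Ox,Glu-lim, and 3.09 under Glu-lim, and CTA1, the peroxisomal catalase, had 2.20 under Et-lim and 4.04 under Glu-lim. The carnitine genes CRC1 (3.67 under Et-lim, 3.55 under Ox,Glu-lim, and 3.39 under Glu-lim) and CAT2 (3.21 under N-lim and 3.48 under Et-lim) move the acetyl units made in the peroxisome to the mitochondria. Over the list, the medians were 3.21 under N-lim (7 genes), 3.42 under Et-lim (8 genes), 4.14 under Ox,Glu-lim (7 genes), and 3.35 under Glu-lim (8 genes). The Ox,Glu-lim medium was also the one that contained Tween 80, an ester of oleate, so that the oxygen supply and this supplement cannot be told apart there.

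Of 29 peroxins and related genes, 3 were Oaf1 targets and none of the 3 was listed for Hap1. PEX11, which drives proliferation of peroxisomes, had 2.14 under N-lim, 2.38 under Et-lim, and 3.55 under Ox,Glu-lim. PEX5, the receptor for the main import signal of matrix proteins, had 2.94 under Et-lim and 3.18 under Glu-lim, and PEX6, an ATPase that recycles it, had 2.86 under N-lim, 2.37 under Et-lim, and 2.21 under Ox,Glu-lim. All 3 promoters held the longer element, and the 3 events of PEX6 were within 7 bp in it. PIP2, the gene of Oaf1's partner, had Oaf1 events of 1.56 under Et-lim and 3.38 under Ox,Glu-lim, and no Pip2 event was listed at PIP2.

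In the list of citrate cycle, malate, glyoxylate, and gluconeogenesis genes, 7 of 34 (20.6%) were Oaf1 targets without Hap1 and 3 (8.82%) were targets with Hap1. Besides MDH2, these were the glyoxylate enzymes ICL1 and MLS1, MDH1, LSC2, FBP1, and IDP2. ICL1, isocitrate lyase, had 2.86 under N-lim, 3.49 under Et-lim, and 3.44 under Ox,Glu-lim, all in the printed element and within 13 bp. MLS1, malate synthase, had 2.35 under Et-lim and 3.59 under Glu-lim. The succinyl-CoA ligase subunit LSC2 was listed under Glu-lim only (2.62), mitochondrial malate dehydrogenase MDH1 under Et-lim only (2.45), the gluconeogenic FBP1 under Et-lim only (1.76), and cytosolic IDP2 under Glu-lim only (1.53). The 4 genes listed under a single condition were thus all from the respiratory cultures.

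Of 18 genes for glutamate, glutamine, proline, and GABA use, 4 were targets without Hap1 and 4 with Hap1. The 4 without Hap1 were GLT1 and UGA3 on their shared promoter, GLN1, which encodes glutamine synthetase, and GDH1, which encodes the biosynthetic glutamate dehydrogenase. GLN1 had 2.63 under N-lim and 2.66 under Et-lim, and GDH1 had 2.71 under Glu-lim only. Both were bound by Ino2 and Ino4 as well, GLN1 at Ino2 values from 5.97 to 7.17 and GDH1 at 4.60 under Et-lim and 3.96 under Glu-lim. The 4 with Hap1 were GAT1, PUT1, PUT2, and PUT4, which include the genes for proline uptake and breakdown.

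Genes of 4 lists for lipid synthesis were targets as well, to be read against the 3.17% of all genes. Of 27 phospholipid genes, 3 (11.1%) were targets without Hap1 and none with Hap1: INO1, PCT1 of phosphatidylcholine synthesis (1.32 under Et-lim and 2.38 under Glu-lim), and the acyltransferase SCT1 (1.29 under N-lim). For fatty acid synthesis, elongation, activation, and esters, 2 of 18 genes in the tables (11.1%) were targets without Hap1 and 6 (33.3%) with Hap1. ELO1, the elongase of medium-chain fatty acids, had 3.29 under N-lim and 4.19 under Ox,Glu-lim at the same base, and IFA38, the ketoreductase of elongation, had 2.24 under N-lim. Sterol synthesis contributed 1 of 25 genes (4.00%) without Hap1 (ERG8 at 1.25 under Ox,Glu-lim) and 5 with Hap1, and sphingolipid synthesis 1 of 24 (4.17%) without (SUR2, which hydroxylates the long-chain base, at 3.71 under N-lim, 2.42 under Et-lim, and 4.55 under Ox,Glu-lim) and 4 with Hap1.

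Of the remaining lists, those for the respiratory chain, for TFs, and for multidrug and lipid transport had more targets with Hap1. Those for hexose transport, permeases, and chaperones had few targets in either set, and ribosomal protein genes had more without Hap1. Each set holds 3.17% of all 7125 genes. None of the 34 respiratory chain genes was a target without Hap1, and 6 were targets with Hap1. Of 40 genes for TFs of carbon, lipid, and stress responses, 2 (PIP2 and MSN4) were targets without and 12 with Hap1, and of 20 genes for multidrug and lipid transport, 1 (TPO3, a polyamine exporter) was a target without and 7 with Hap1. MSN4, an activator of the stress response, had 3.09 under Et-lim, 1.76 under Ox,Glu-lim, and 3.60 under Glu-lim. Hexose transport had 1 of 20 genes on each side, with HXT3, a low-affinity glucose transporter, at 2.07 under N-lim without Hap1. Of 27 permease genes, 1 (the urea transporter DUR3 at 2.64 under Glu-lim) was a target without and 2 with Hap1, and of 39 genes for chaperones and redox defence 1 (CTA1) was a target without and 2 with Hap1. Cytosolic ribosomal protein genes, a list made after the values were seen, had 14 of 138 genes (10.1%) without and 2 (1.45%) with Hap1. The 14 genes were mostly weak targets, with a median highest value of 1.77, and 9 of them were listed under 1 condition. RPS26B had the highest, 4.07 under N-lim, but its event lay 1165 bp upstream and was listed for YER130C as well.

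The events of these genes lay closer to the gene start than those of the Oaf1 targets with Hap1. All 334 entries whose gene has coordinates in the annotation were upstream of that gene, and the other 37 entries belonged to the 20 gene names without a match in it. The deposited distances fitted the annotated start within 1 bp in all 334. The median distance was 383 bp (binomial 95% interval 341 to 428) without and 538 bp (513 to 572) with Hap1. Within 600 bp were 264 of 371 entries (71.2%, 66.3 to 75.7) without and 293 of 490 (59.8%, 55.3 to 64.2) with Hap1. These intervals treat entries as independent, which they are not. A gene has an entry for each condition in which it was listed, and an event shared by a pair of genes is entered for both. The difference in distance was not tested. Between 100 and 200 bp there were 69 entries (18.6%) without and 21 (4.29%) with Hap1, and between 200 and 300 bp 66 (17.8%) without and 39 (7.96%) with Hap1. No entry was nearer than 101 bp without Hap1 or 112 bp with Hap1. The study's methods give no lower limit of distance, so it cannot be told whether nearer events were left out of the tables. Of the 248 distinct events, 53 (21.4%, 16.4 to 27.0) lay inside an annotated protein-coding gene and the rest between such genes, against 84 of 343 (24.5%, 20.0 to 29.4) with Hap1. The tables give the distance to the start codon, not to the start of transcription.

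**Figure D3:**
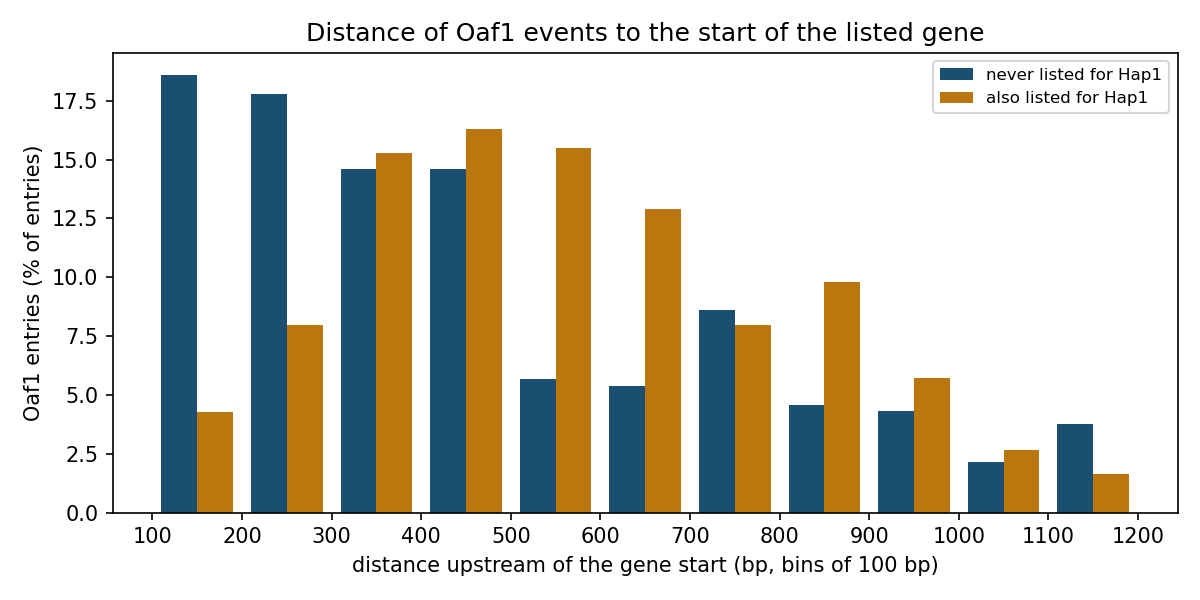
Distance from Oaf1 events to the start of the listed gene, in bins of 100 bp, as the percent of entries of genes never listed for Hap1 (left bar of each pair) and of genes also listed for Hap1 (right bar). The 2 bins nearest the gene hold 18.6% and 17.8% of the entries without Hap1, and 4.29% and 7.96% of those with Hap1.

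The position of a gene's event often differed between conditions. Of the 80 genes listed under 2 or more conditions, 28 (35.0%, 24.7 to 46.5) kept all events within 20 bp and 41 (51.2%) within 50 bp, with a median spread of 43.0 bp. For the Oaf1 targets with Hap1 these were 39 of 142 (27.5%, 20.3 to 35.6) and 56 of 142 (39.4%), with a median of 75.0 bp. Each table keeps only the highest event of a gene and condition, so a weaker event that stays in place is not seen.

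Under the events, CGG was the common sequence. It was found on either strand within 20 bp of 226 of 248 events (91.1%) without Hap1 and 329 of 343 (95.9%) with Hap1, against 33.4% of 83129 windows of the same 41 bp upstream of all protein-coding genes. Median G + C in these windows was 51.2% without Hap1, 56.1% with Hap1, and 36.6% upstream of all genes. CGGNNNTAA was found at 39 of 248 events (15.7%, 11.4 to 20.9) without Hap1 and 62 of 343 (18.1%, 14.1 to 22.6) with Hap1, and in 1.000% of the upstream windows. The study derived this motif from its Oaf1 events, which include these, so its share is a description and not independent support. The motif overlaps the element described above, whose left part it repeats. CCGATA, which is part of the Hap1 site, was at 0 of 248 events without Hap1 (exact binomial upper bound 1.48%) and at 11 of 343 (3.21%) with Hap1, and in 0.878% of the upstream windows. The upper bound is above the share of the windows. The intervals here too treat events as independent, which those of 1 promoter are not. The study took CCGATA from its Hap1 events and the genes were selected on those events, so this contrast is partly set by the selection.

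The share of events with these sequences differed among the promoters without Hap1. CGGNNNTAA was at 11 of 35 events (31.4%) with log2(S/N) above 4 and at 28 of 213 (13.1%) of the weaker events, and the longer element at 17 of 35 (48.6%) and 50 of 213 (23.5%). The element was at 8 of the 10 promoters with the highest Oaf1 value and at 13 of the highest 20. By condition, it was at 37.5% of N-lim events, 23.8% of Et-lim events, 36.0% of Ox,Glu-lim events, and 18.9% of Glu-lim events. Taking 1 element in each of the 36 promoters that held any, the one nearest to an event, 58 of 95 Oaf1 events (61.1%) were within 12 bp of its centre and 73 of 95 (76.8%) within 30 bp. An element was searched only around events, so that these shares are partly set by the search.

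**Figure D4:**
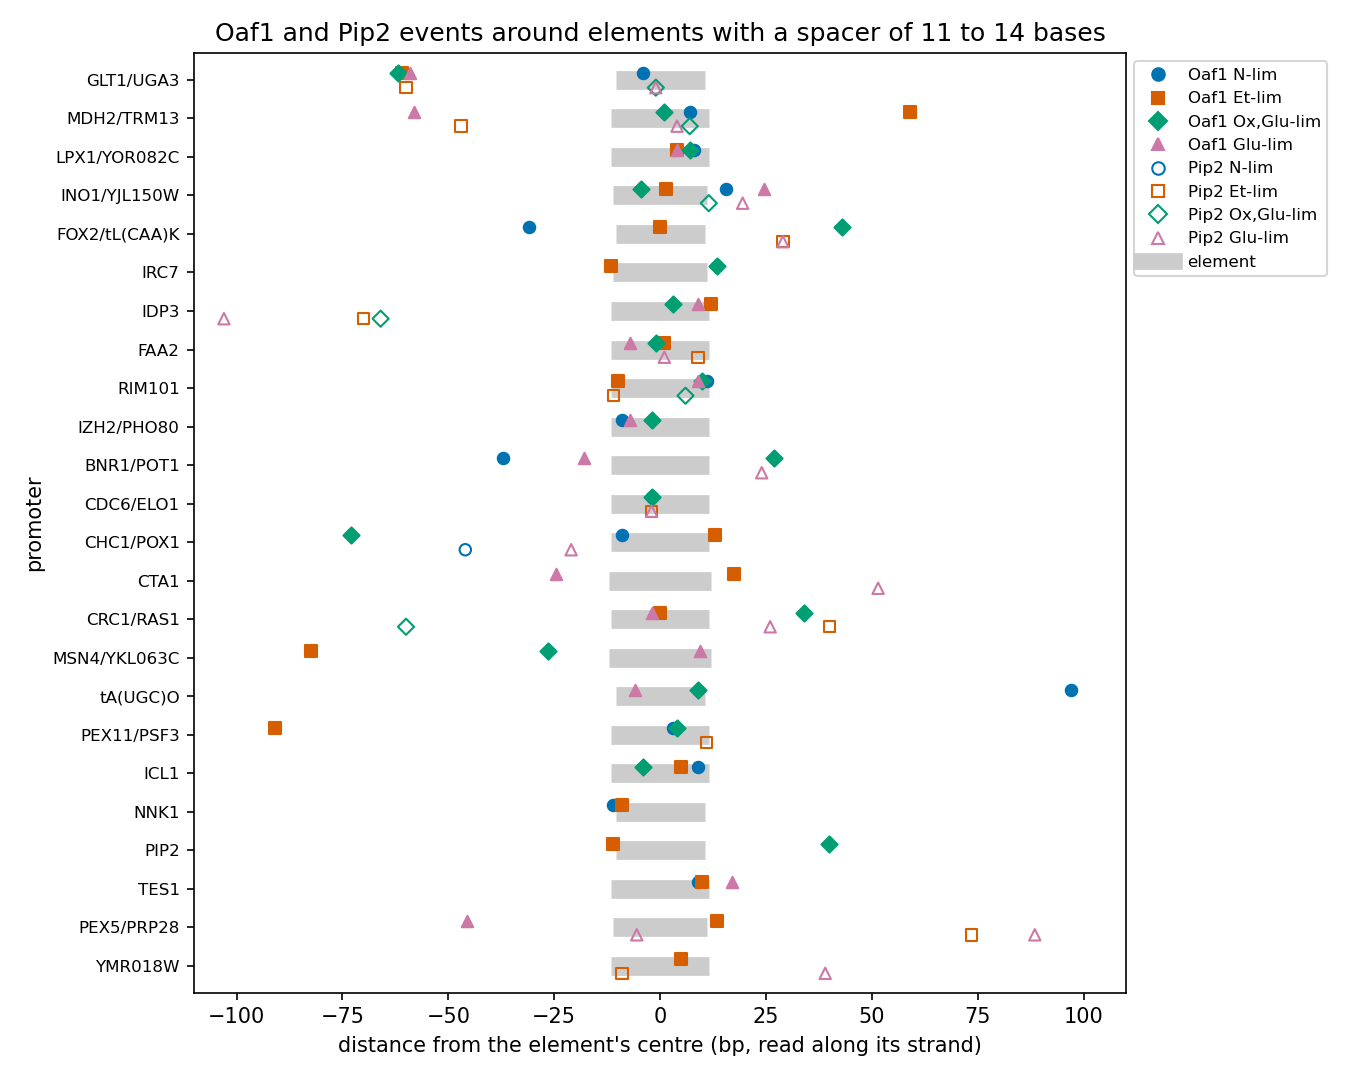
Positions of Oaf1 (filled) and Pip2 (open) events relative to the centre of an element with a spacer of 11 to 14 bases, in bp along its strand (where a promoter holds several, the one whose centre is nearest to an Oaf1 event), for the 24 promoters with the highest Oaf1 value among the 36 that hold one. Grey bars show the element; at RIM101 the Oaf1 events sit at its 2 ends, at FAA2 inside it, and 7 events farther than 110 bp are outside the axis.

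The most frequent k-mers that the event caller attached to the events were not the same under all conditions. Nearly the same site could be given another k-mer in another condition, so this is not by itself a change of bound sequence. For example, the MTL1 events at bases 528717 under Et-lim and 528720 under Glu-lim had TCCGC and CGGAG. A k-mer was listed for 178 of the 252 events of the 4 conditions (70.6%), and 175 of these 178 contained CGG or CCG. Under N-lim CGGAG was the most frequent, at 15 of 30 events with a k-mer. Under Et-lim CCCGC and GCGGA were each at 12 of 58, and under Ox,Glu-lim CGGAG was at 7 and TCCGA at 6 of 31. Under Glu-lim GCCGC led with 17 of 59, before CGGAG with 12. Each k-mer was counted together with its reverse complement. For the targets with Hap1 the most frequent k-mers were CGGAG (18 of 43) under N-lim, GCGGA (18 of 77) under Et-lim, CGGAG (13 of 53) under Ox,Glu-lim, and GCCGC (13 of 68) under Glu-lim, so that the leading k-mers were shared by both sets under all 4 conditions.

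Pip2 was listed at 45 of the 226 genes (19.9%, exact binomial 95% interval 14.9 to 25.7), against 56 of the 226 Oaf1 targets with Hap1 (24.8%, 19.3 to 30.9) and 235 of all 7125 genes (3.30%). In promoters these were 31 of 158 (19.6%) without and 46 of 155 (29.7%) with Hap1. Pip2 was not used to select the genes. The 45 genes made up 19.1% of the 235 Pip2 targets. By condition, Pip2 was at 9 genes under N-lim, 25 under Et-lim, 14 under Ox,Glu-lim, and 32 under Glu-lim. The 14 genes under Ox,Glu-lim were 34.1% of the 41 Pip2 targets of that condition, whereas the Oaf1 targets with Hap1 held 2 (4.88%). These 14 genes had fewer distinct events. The pairs GLT1/UGA3, MDH2/TRM13, INO1/YJL150W, CRC1/RAS1, and FOX2/tL(CAA)K each shared a Pip2 event there, as did RIM101 and WSC4. ICL1 and WSC4 had Pip2 events past their 3′ end only. Neither set was counted by promoter under a single condition, so the contrast holds for genes only. Under the other 3 conditions the genes without Hap1 held 16.7% of the N-lim, 22.1% of the Et-lim, and 25.8% of the Glu-lim targets of Pip2, and those with Hap1 held 16.7%, 31.9%, and 32.3%.

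Pip2 was concentrated at the strong Oaf1 promoters. It was listed at 14 of the 20 promoters with the highest Oaf1 value and at 17 of the other 138 (12.3%). The median of the highest Oaf1 log2(S/N) was 4.04 for the 45 genes with Pip2 under any condition and 2.13 for the 181 without, and the order was the same under each condition, with 3.28 against 2.01 under N-lim, 3.11 against 2.16 under Et-lim, 4.14 against 1.84 under Ox,Glu-lim, and 3.18 against 2.34 under Glu-lim. Among the strong promoters without any Pip2 event were LPX1, GTT3/PMP2, IRC7, and IZH2/PHO80. The longer element was at 36 of 77 events (46.8%) of genes with Pip2 and at 32 of 173 (18.5%) of genes without.

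GLT1/UGA3 had the highest value of both TFs. Its Pip2 log2(S/N) was 6.06 under Et-lim, 4.41 under Ox,Glu-lim, and 6.50 under Glu-lim, with Pip2 at base 156197 under Et-lim, where the Oaf1 event was at 156198, and at base 156138 in the printed element under the other 2 conditions. MDH2/TRM13 had 3.71 under Et-lim, 2.10 under Ox,Glu-lim, and 5.62 under Glu-lim. FOX2 had 2.10 under N-lim, 4.49 under Et-lim, 2.55 under Ox,Glu-lim, and 4.49 under Glu-lim, the last without an Oaf1 event. CRC1/RAS1 had 4.14 under Et-lim, 2.98 under Ox,Glu-lim, and 3.43 under Glu-lim. Only FOX2 among these 4 promoters had a Pip2 event under N-lim, and it was the lowest of its values.

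At ELO1 the TFs were listed under different conditions but at the same base. Oaf1 was at base 68923 under N-lim (3.29) and Ox,Glu-lim (4.19), and Pip2 was at base 68923 under Et-lim (1.41) and Glu-lim (6.29). This base is inside the printed element, 142 bp upstream of ELO1. The 6.29 under Glu-lim is the highest Pip2 value of these genes after that of GLT1/UGA3. ELO1 was 1 of 6 genes with both TFs but no condition in common.

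Where both TFs were listed for a gene and condition, which was so for 64 pairs at 39 genes, the events were 42.0 bp apart in the median. Of the 64 pairs, 20 (31.2%, 20.2 to 44.1) were within 20 bp, 33 (51.6%) within 50 bp, and 61 within 200 bp, and for the Oaf1 targets with Hap1 29 of 73 (39.7%, 28.5 to 51.9) were within 20 bp. Counting each pair of events on a shared promoter as 1, there were 43 pairs, 14 of them within 20 bp. Irrespective of the condition, the nearest Oaf1 and Pip2 events were within 20 bp at 33 of the 45 genes. At FAA2 they were at the same base (184365), as at MDH2 (83288), and at RIM101, RPS26B/YER130C, and SUR2 they were 1 bp apart.

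In 5 of the 45 genes the picture was different. ICL1, SUP17, TRF5, WSC4, and YKL044W, had Pip2 events listed from their 3′ end only and 395 to 3760 bp from the nearest Oaf1 event. SUP17, a tRNA gene, owed its high Pip2 values (3.46 under N-lim, 4.81 under Et-lim, and 5.49 under Glu-lim) to such events, and its Oaf1 event, 1.94 under Glu-lim, was on the other side of the gene. The Pip2 events of WSC4, at bases 50849 and 50832, were those of the RIM101 promoter that lies beyond its 3′ end.

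Among the 40 distinct pairs within 200 bp, Oaf1 had the higher log2(S/N) in 26 and Pip2 in 14. Across these pairs Pearson's r was 0.59 and Spearman's ρ was 0.39, given as a description only, since several pairs come from 1 promoter and the profiles of each TF share their libraries. All 7 pairs under Ox,Glu-lim had the higher value for Oaf1. Values of the 2 TFs come from different strains and libraries with their own noise level, so that a difference between them is not a difference in occupancy.

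**Figure D5:**
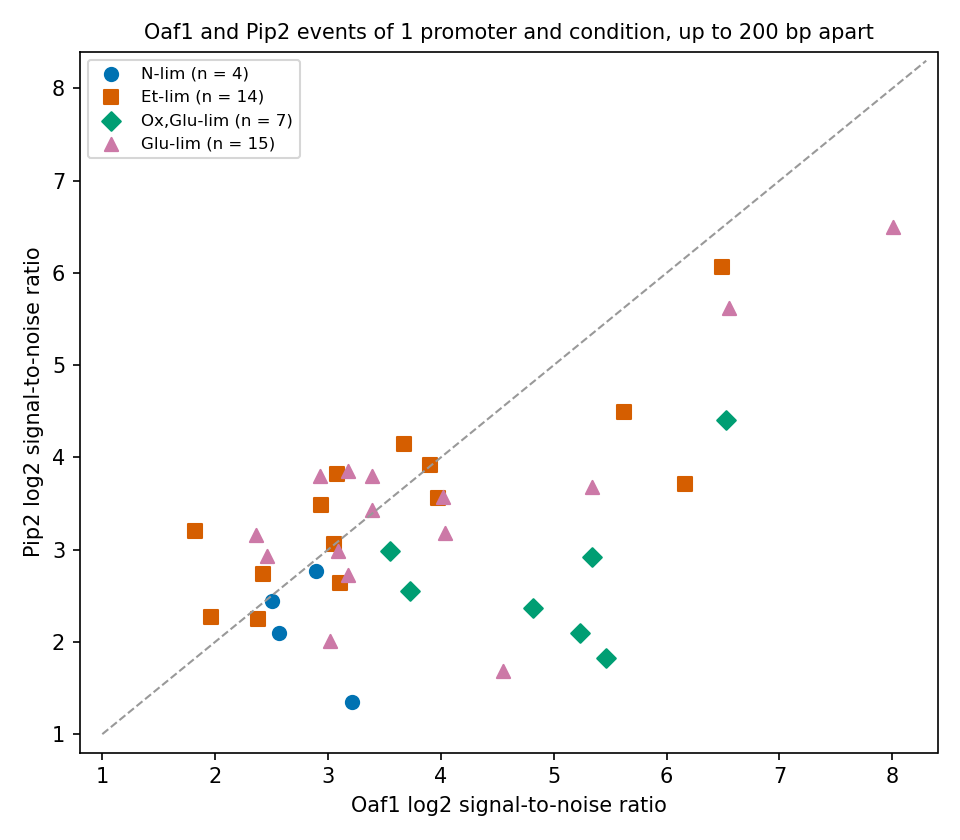
Pip2 against Oaf1 log2 signal-to-noise ratio for the 40 distinct pairs of events listed for the same gene and condition and at most 200 bp apart, at promoters never listed for Hap1. The dashed line marks equal values: all 7 Ox,Glu-lim pairs lie below it, and 26 of the 40 pairs have the higher value for Oaf1.

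Ino2 and Ino4, basic helix-loop-helix activators of phospholipid synthesis, were less frequent at these genes than at the Oaf1 targets with Hap1. Ino2 was listed at 88 of the 226 genes (38.9%, 32.5 to 45.6) without and 176 (77.9%, 71.9 to 83.1) with Hap1, against 11.7% of all genes, and Ino4 at 65 (28.8%, 23.0 to 35.1) without and 150 (66.4%, 59.8 to 72.5) with Hap1, against 9.46% of all genes. The intervals of the 2 sets did not overlap for either TF, but they treat genes as independent, which genes of 1 promoter are not. In promoters, Ino2 was at 59 of 158 (37.3%) without and 121 of 155 (78.1%) with Hap1. Ino4 was at 46 of 158 (29.1%) without and 103 of 155 (66.5%) with Hap1. The difference was not tested. None of Pip2, Ino2, and Ino4 was listed at 104 of the 226 genes (46.0%) without and 32 (14.2%) with Hap1. Ino2 was at 34.1% of the genes under Et-lim and 28.3% under Glu-lim, and at 3.98% under N-lim and 10.2% under Ox,Glu-lim. The order was that of Ino2 as a whole, with 725, 631, 133, and 247 genes in all under these conditions. Ino4 was at 6.64% under N-lim, 5.31% under Et-lim, 14.6% under Ox,Glu-lim, and 25.7% under Glu-lim. In all, Ino4 was listed for 166, 178, 486, and 535 genes in that order of conditions. The 10 β-oxidation genes had no Ino4 event, and CRC1 alone had an Ino2 event, at 1.30 under Glu-lim.

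All 3 of Pip2, Ino2, and Ino4 were listed at 9 of the 226 genes (3.98%) without Hap1, against 35 (15.5%) with Hap1. The 9 genes were INO1 and YJL150W, DUS3 and YLR402W, HSH49, RNR4, SUR2, PTP3, and WSC4. INO1 and YJL150W share their Oaf1 events, as do DUS3 and YLR402W, and the Pip2 events of WSC4 lie past its 3′ end. INO1 had Ino2 values of 4.24 under N-lim, 7.38 under Et-lim, 5.12 under Ox,Glu-lim, and 7.51 under Glu-lim, Ino4 values of 6.19, 7.55, 7.28, and 7.40 in the same order, and Pip2 values of 1.82 under Ox,Glu-lim and 3.68 under Glu-lim. RNR4, a subunit of ribonucleotide reductase, had Oaf1 values of 4.63 under Et-lim and 4.55 under Glu-lim, 3 bp apart, and no event under the other 2 conditions. HSH49, a splicing factor of the U2 snRNP, had 2.89 under N-lim, 5.26 under Ox,Glu-lim, and 3.28 under Glu-lim. At PTP3, a phosphatase of the MAP kinase pathways, and WSC4, a cell wall sensor, the Oaf1 values were 1.97 and 1.04 under 1 condition each.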

How the data were processed

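ChIP-exo libraries of 5 TFs under 4 conditions were described from the 5 tables that the authors deposited, 1 for each TF. According to the study's methods, the authors mapped reads with Bowtie2 to R64-2-1, removed low-quality reads, trimmed 70 bases from the 3′ end, called events in the duplicates with GEM, assigned them with BEDTools within 1200 bp of a gene, and kept log2(S/N) above 1. The labels also name SAMtools, and versions are not given in the sources used here. The deposited log2 values are those of the highest event of each gene, and in the Pip2 table, whose lines differ in length, they were read as a score. The authors also gave other fields: position, k-mer, and distance of each event. Depth is unknown, so intervals cover the counts of genes or events only.

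All 100 columns (20 per TF) were used, grouped by their headers. A script selected the genes, joined genes with a shared event into promoters, and searched R64 on both strands within 20 bp (CGG, CGGNNNTAA, CCGATA) or 30 bp (the element) of events. Upstream windows tiled the 600 bp before each protein-coding gene. The search was tested on simulated data. Names matched the annotation for 206 of 226 genes. The genes, 14 gene lists, and alternatives were chosen with earlier results of these data known, and so was the rule for named genes: the 12 highest means and 5 largest ranges among genes of all 4 conditions, the 3 highest of each single condition, the 8 highest for Pip2, genes with all TFs but Hap1, up to 4 of each list, 3 on each side of the threshold, and targets named in the study's text. Others were named after their values were seen. Intervals are exact (Clopper-Pearson, 95%). They treat genes, entries, events, or pairs as independent, which those of 1 promoter are not. Software: SciPy 1.17.1, NumPy 2.4.6, pandas 2.3.3, matplotlib 3.10.9, on Python 3.11.15. An emptied line in each of the 5 tables (1 per TF) is not analysed here. The sequence of an element at another strong promoter is not reported here.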

Additional observations from a re-analysis of the deposited data

How the results depend on the processing

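Of 78 values recomputed for the 8 results, 67 stayed within 1.5 times a count or within the interval of a share or median, and 11 did not. A higher threshold for all TFs raised the median of the highest Oaf1 log2 to 2.79 (threshold 1.5) and 3.02 (threshold 2), as its construction requires, and the share of genes with Pip2 to 26.3% (threshold 2). It also changed the genes: at threshold 2 there were 179, of which 139 were among the 226. Counting each event for its nearest gene only left 8 genes listed under all 4 conditions in place of 20, and put 77.6% of entries within 600 bp; counting promoters in place of genes, chosen after seeing the data, gave 11. Without Glu-lim, 43 genes were listed under all remaining conditions. A window of 10 bp or 50 bp on each side gave CGGNNNTAA at 10.5% or 25% of events, 50 bp in place of 20 bp put 51.6% of Oaf1 and Pip2 pairs at 1 site, and a spacer of 11 to 14 bases in place of 7 to 10 raised the share of events with the element to 27.0%. The share within 600 bp could not be recomputed among entries limited to 600 bp. No paired analysis was possible because the duplicates are pooled in the tables, and for the same reason no replicate could be left out. The precision of a single log2 value could not be estimated.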
